A study of Mus musculus with 6 samples.

Results

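The genes described here are the long intergenic noncoding RNA (lincRNA) genes that gave enough reads to be measured well in intraepithelial T lymphocytes of the mouse small intestine. A gene was taken where the deposited table annotates it as lincRNA and its raw counts, summed over the 6 libraries, reach 600. Of 55487 genes in the table, 5629 are lincRNA models. Of these, 4298 had no count in any library, 1223 had a count but fewer than 600, and 108 reached the threshold. Just inside it lay 1700086O06Rik with 601 counts, Gm20707 with 613 and Gm32856 with 624, and just outside it Gm44751 with 588, Gm12474 with 583 and Gm47705 with 556. The genes were thus chosen by their summed counts over all 6 libraries, and their levels are given as a description.

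Long noncoding RNAs are transcribed and often spliced like mRNAs but are not known to encode a conserved protein. Some act where they are made, as scaffolds of nuclear bodies (Neat1, Malat1) or as a coat over a chromosome (Xist). Others act in the cytoplasm by binding proteins or miRNAs (Norad, Cyrano), carry miRNAs or snoRNAs within their transcripts, or are made beside a coding gene whose output they can affect. In lymphocytes many are specific to a cell state while their function is unknown, and most of the genes here carry only a clone name: 59 have a Gm number and 24 a Rik name as symbol.

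Live cells were sorted from small-intestinal epithelium of wild-type (WT) C57BL/6J mice, gating on CD3ε, part of the T cell receptor, and on CD45, the phosphatase of all leukocytes. Cells lacking B220, a CD45 form best known from B cells, are labelled T cells (B220-CD3ε+CD45+), and those carrying it are labelled X cells (B220+CD3ε+CD45+). Each group has 3 libraries of total RNA, and the labels give neither the sex nor the age of the animals, nor whether animals were pooled. No label says that the replicates are separate animals, so a p-value reflects only how far these libraries scatter, which may be technical. Library totals were 18773165, 17753655 and 11320363 counts for B220- replicates 1 to 3, and 11810859, 39591312 and 14173322 for B220+ replicates 1 to 3. By edgeR's quasi-likelihood test the T cell genes Cd3d, Cd3e, Cd3g, Trac, Ptprc and Itgae were not called different. Cd247 was called lower in B220+ cells by 0.51 on the log2 scale (adjusted p = 0.00107). Of these 7 genes 4 had an unadjusted p under 0.05 in that test, and DESeq2 called 2. The B cell gene Ms4a1 held 2 counts in the B220- and 1 in the B220+ libraries.

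The label intergenic was checked against the coordinates of the table. By that check 36 of the 108 models lie inside or overlap a protein-coding gene, 31 lie within 5 kb of one and 41 lie farther away. In 52 models another gene model overlaps the lincRNA and has over 10% of its counts. The library kit marks strand, but models of miRNA precursors inside introns had a count as often on the strand opposite to the host (46 of 87, 52.9%) as on the same strand (155 of 314, 49.4%). Where exons of models overlap on opposite strands their reads were therefore taken as inseparable. An overlap of models on opposite strands is named beside each called gene it touches. Among the uncalled genes named here Lncpint, Mir142hg, Ftx, Gm27194, Gm28592, Gm28901, Gm47162, Lockd and 1700086O06Rik also have one, and Gm20707 is overlapped by Zfp984 on the same strand. Mir142hg, Ftx and the called gene Gm44175 share no exon base with the overlapping models counted here. In these bulk libraries fewer cells of a type and less RNA per cell cannot be told apart.

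A pair of libraries stood apart in the lincRNA that reads out X inactivation. Xist, which coats and silences the inactive X chromosome of female cells, measured 137 and 155 normalised counts (CPM, counts scaled to the library size) in B220- replicates 1 and 3 and 0.51 in replicate 2. In B220+ cells it measured 96.5 and 155 CPM in replicates 1 and 3 and 0.353 in replicate 2. The Y-linked genes Ddx3y, Eif2s3y, Kdm5d and Uty, summed, were present in all 6 libraries. They measured 398 and 413 CPM in replicate 2 of the B220- and B220+ groups, and 290, 301, 306 and 279 CPM in the other libraries, which is 67.7% to 75.7% of replicate 2 of the same group. Replicates 1 and 3 of each group thus held reads of Xist and of Y genes together, and both libraries numbered 2 held Y gene reads and almost none of Xist. Both groups had this composition, and Xist itself was not called (log2 fold change -0.24, SE 2.07, adjusted p = 0.968). The counts of calls below are also given without both libraries numbered 2.

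**Figure D1:**
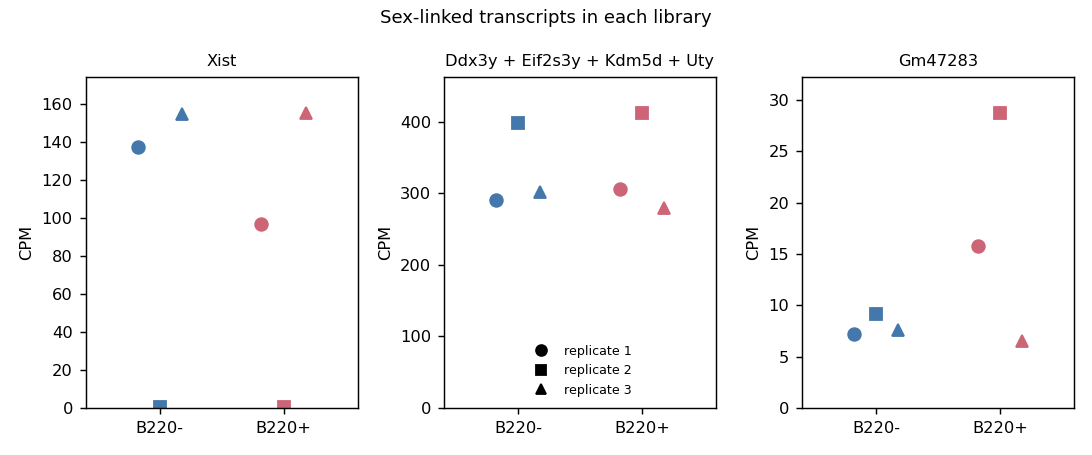
Xist, the summed Y-linked genes Ddx3y, Eif2s3y, Kdm5d and Uty, and Gm47283, a lincRNA annotated on the Y chromosome, in CPM. There is 1 point per library, with the replicate number as the marker shape. Xist is at 0.51 and 0.353 CPM in the libraries numbered 2 and between 96.5 and 155 CPM in the others. The summed genes Ddx3y, Eif2s3y, Kdm5d and Uty are present in all 6.

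Among the 108 genes, 2 are the hosts of miRNA families that are central to lymphocytes, and their products are shown here because the counts below follow the host transcript and not the mature miRNA. Mature sequences are from RefSeq (GRCm38.p6), written 5′ to 3′ with the seed (bases 2 to 8) in capitals. Mir142hg, on chromosome 11, holds both arms of miR-142, a miRNA characteristic of blood cells.
miR-142a-5p: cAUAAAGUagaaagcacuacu
miR-142a-3p: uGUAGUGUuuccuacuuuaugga
Mir17hg, on chromosome 14, holds the miR-17-92 cluster, which promotes lymphocyte growth and survival. Its main arms fall into families that share a seed: miR-17-5p with miR-20a-5p (AAAGUGC), and miR-19a-3p with miR-19b-3p (GUGCAAA).
miR-17-5p: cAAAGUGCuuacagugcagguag
miR-20a-5p: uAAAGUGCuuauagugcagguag
miR-18a-5p: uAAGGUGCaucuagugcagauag
miR-19a-3p: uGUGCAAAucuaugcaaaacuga
miR-19b-3p: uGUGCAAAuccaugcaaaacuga
miR-92a-3p: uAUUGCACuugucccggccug

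Oip5os1, known as Cyrano, carries a site that pairs with nearly the whole of miR-7 and directs the decay of that miRNA. The site was found in its longest annotated transcript of 8300 bases, at bases 2935 to 2959. It is shown because this lincRNA was called higher in B220+ cells. Capitals mark the 22 bases that pair in each sequence.
Oip5os1 site: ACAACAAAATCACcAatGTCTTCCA
miR-7a-5p: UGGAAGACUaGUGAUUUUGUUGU
A match to the miR-7 seed was found in the transcripts of 21 of the 108 genes, Oip5os1 included. In an alignment that allowed gaps, the best site of Dubr paired 21 bases and those of the remaining genes 5 to 18. The alignment did not hold the seed match in place, so the lowest counts leave out part of the seed. These counts describe matching letters and do not measure miR-7 binding.

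The transcripts differed in abundance over a wide range, which is a description since the counts chose them. Together they held 567078 counts. Malat1, AU020206 and AW112010 accounted for 46.9% of these and, with Neat1, for 53.5%, and 42 genes had fewer than 1200 counts. The median of the mean levels was 14.1 CPM, and the models spanned 141 to 20771 bases of exon (median 2244.5). Per kilobase of exon, AW112010, an interferon-responsive transcript of immune cells, was highest at 807 CPM per kilobase, followed by AU020206 at 203. Gm44174, with a model of only 141 bases beside Cd8a, came next at 182, then Malat1, a transcript of nuclear speckles, at 138. Gm44174 (2893 counts) ends at base 71373284 of chromosome 6, and Cd8a (285090 counts) starts at base 71373427 on the same strand. Whether reads of Cd8a transcripts add to the level of Gm44174 was not tested. Mir142hg reached 93.7 CPM per kilobase, and Gm28942, Gm10684, Gm28592, Snhg12 and Epb41l4aos lay between 32.5 and 92.2. Gm44174 overlaps the gene body of Gm44175 without a shared exon base, and Gm10684 overlaps Jaml, a cell adhesion gene on the opposite strand with 393.8% of its counts. None of these 10 genes was called between the groups by edgeR's quasi-likelihood test with Benjamini-Hochberg adjustment. In that test 28 of the 108 genes had an unadjusted p under 0.05, as did 3305 of all 14722 genes tested. DESeq2 called none of the 10 either, and with the replicate number as a block Snhg12 alone was called.

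**Figure D2:**
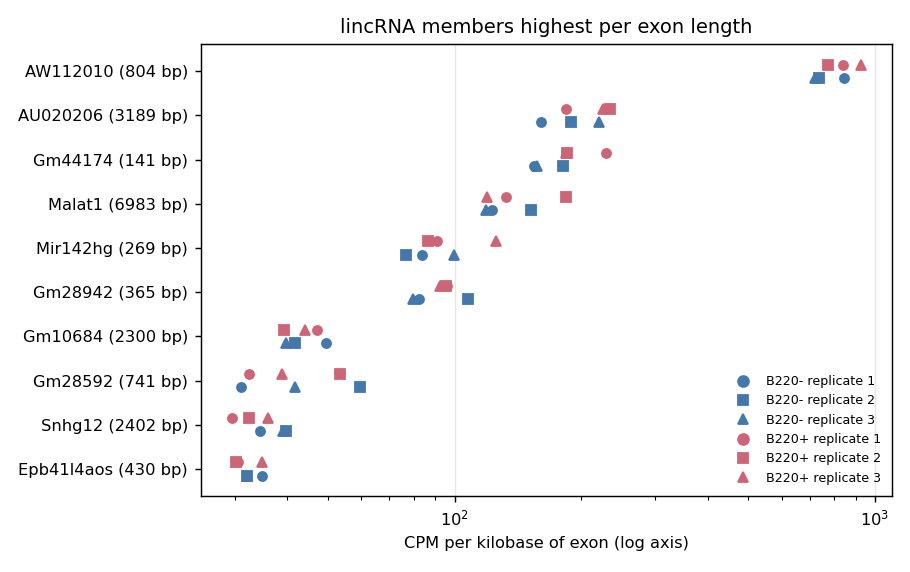
Level per kilobase of exon (CPM per kilobase, log axis) of the 10 lincRNA genes with the highest mean, 1 point per library, with the exon length of the model in parentheses. AW112010 lies far to the right of the others at a mean of 807, and the B220- and B220+ libraries overlap or lie close together in every row.

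The comparison of B220+ with B220- cells asks which genes differ between these lymphocytes of the same epithelium. Of the 108 lincRNA genes, 14 (13.0%) were called higher in B220+ cells and 4 (3.70%) lower at an adjusted p under 0.05, by edgeR's quasi-likelihood test over all 14722 genes tested. Among all genes tested 5.58% were called higher, 5.56% lower and 11.1% in either direction. For genes of any kind with at least 600 counts, 6.47% were called higher and 5.51% lower. All 108 genes passed the filter on low counts. The threshold of 600 counts equals 5.29 CPM at the summed depth, and 10 of the 108 genes would not reach it at the level of their lower group. Among those 10, Gm19590, 5031425F14Rik, Gm39348, Gm10605 and Gm50431 were called higher, and Morrbid, Gm28901, Lockd, Gm20707 and 1700086O06Rik were not called. These 10 could enter only through their higher group, so a difference was built into their choice. Without them 9 of 98 genes were called higher and 4 lower.

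Most of the lincRNA genes differed little. The median log2 fold change was 0.04 (quartiles -0.12 and 0.23), against -0.01 over all genes tested, 72 genes differed by less than 1.2-fold, and 15 by more than 1.5-fold. The groups did not overlap in 34 of the 108 genes (31.5%), against 28.1% of all genes tested. The 108 genes took 0.46%, 0.47% and 0.483% of the counts of the B220- libraries and 0.495%, 0.535% and 0.508% of the B220+ libraries. In the 18 called genes the groups did not overlap, so each moved the same way in all 3 numbered pairs by necessity. All 18 were called by DESeq2, which called 6.71% (3.34% higher, 3.37% lower) of the 26276 genes with a count. Those include low-count genes outside the 14722 that edgeR tested, so this share is not comparable with that of edgeR. Leaving out 1 library at a time, B930059L03Rik, 1810006J02Rik, Gm5547, Gm47015, 4930562F07Rik and 5430416N02Rik kept their call in all 6 fits and the other 12 lost it in at least 1. The number called higher fell to 6 without B220- replicate 3, where calls over all genes tested fell from 1639 to 1029. It fell to 6 without B220+ replicate 2 (970 of all genes tested called) and to 7 without B220+ replicate 1 (1246 called). Without both libraries numbered 2 it was 7, with 4 called lower. In that fit 4.46% of all genes tested were called higher, 4.14% lower and 8.59% in either direction. With no filter on low counts 15 were called higher and 5 lower, against 4.19%, 4.23% and 8.41% of all genes tested.

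Same-numbered libraries of the 2 groups deviated together, but the main fit takes the group alone and does not use this pairing. Calls and adjusted p-values are from that fit unless another is named. With the replicate number as a block, 17 were called higher and 6 lower, against 8.85% and 8.60% (17.5% together) of all genes tested.

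**Figure D3:**
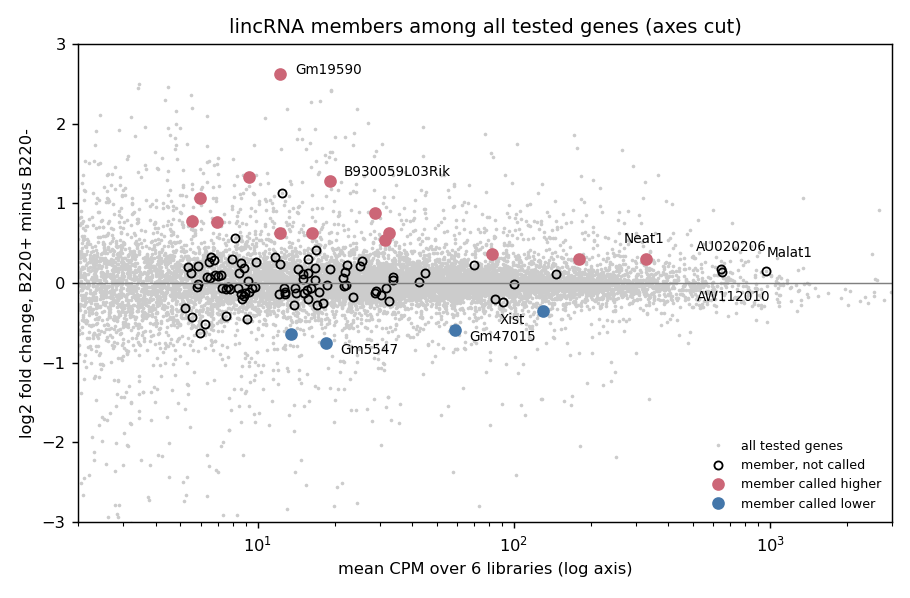
Log2 fold change (B220+ minus B220-) against mean CPM over the 6 libraries (log axis) for all genes tested (grey) and the lincRNA genes (circles, filled where called). Genes beyond the axes are not drawn. The lincRNA genes above 50 CPM lie between -0.59 and 0.37, and those with the largest fold changes lie at low levels.

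Among lincRNAs of the nucleus, Neat1 was higher and Malat1 was not called. Neat1, the scaffold of paraspeckles (chromosome 19, 5824708 to 5845478), measured 285, 304 and 289 CPM in the B220- libraries and 390, 368 and 326 CPM in the B220+ libraries. The groups did not overlap, and the lowest B220+ library was replicate 3. The means were 293 ± 10 and 361 ± 32 CPM (SD, n = 3 each), a log2 fold change of 0.30 (SE 0.08, 1.23-fold, adjusted p = 0.0207). That call was lost without B220- replicate 3 (adjusted p = 0.0959), B220+ replicate 1 (0.0899) or B220+ replicate 2 (0.0841), and without both libraries numbered 2 (0.0943). Malat1, made from the neighbouring locus, measured 860, 1061 and 830 CPM in B220- libraries and 924, 1286 and 836 CPM in B220+ libraries. Its high libraries were replicate 2 of each group, the groups overlapped, and the log2 fold change was 0.15 (adjusted p = 0.725).

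None of the 18 genes tested for proteins of paraspeckles and nuclear speckles was called by edgeR or DESeq2, and 1 had an unadjusted p under 0.05 (Taf15, -0.19 on the log2 scale, called with the replicate block at an adjusted p of 0.0243). They include Sfpq (-0.05), Nono (-0.08) and Pspc1 (-0.12, all log2), which bind Neat1. Norad, listed as 2900097C17Rik, which binds Pumilio proteins, had means of 141 ± 8.7 and 153 ± 9.0 CPM (log2 fold change 0.12, adjusted p = 0.399). Its transcript held 11 matches to the Pumilio motif TGTANATA, more than any other of the 108 genes. Xist came next with 6, and 34 of the 108 had any match on the transcribed strand. Lncpint (-0.14) and Pvt1 (-0.07), the latter beside Myc, were not called. In all, 9 genes of the list of nuclear and architectural lncRNAs were tested, with Neat1 called higher and Miat, which lay under 600 counts, called lower.

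Cyrano (Oip5os1, chromosome 2, 119594297 to 119607502), the RNA with the miR-7 site shown above, measured 164, 164 and 154 CPM in B220- and 208, 200 and 187 CPM in B220+ libraries. All B220+ libraries were above all B220- libraries. The log2 fold change was 0.30 (SE 0.07, 1.23-fold, adjusted p = 0.0123). Without B220- replicate 3, B220+ replicate 1 or B220+ replicate 2 the adjusted p was 0.0737, 0.0569 and 0.0528, and without both libraries numbered 2 it was 0.0771. The coding gene next to it, Oip5, a centromere protein, had a log2 fold change of -1.31 at 137 counts in all (adjusted p = 0.0921). Among 13 genes of miRNA processing tested, including Drosha, Dicer1 and Ago2, edgeR and DESeq2 called none, and 3 had an unadjusted p under 0.05 (Ago2, Ago4 and Tnrc6a). With the replicate block Ago2 (0.18, adjusted p = 0.0376) and Tnrc6a (-0.19, adjusted p = 0.035) were called.

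**Figure D4:**
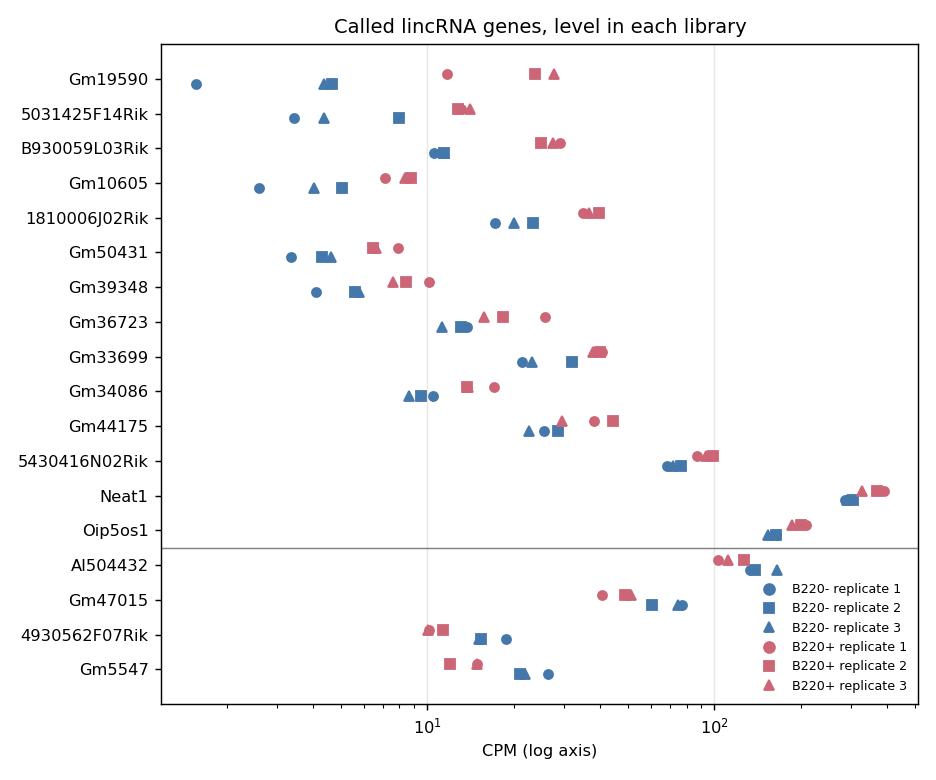
Level in CPM (log axis) of the 18 called lincRNA genes in each of the 6 libraries, with blue for B220-, red for B220+ and the marker shape for the replicate number. The 14 genes above the line were called higher and the 4 below it lower in B220+ cells, and the colours do not overlap in any row.

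The smallest adjusted p-values in the higher direction belonged to a pair of genes known only by clone names, each over 5 kb from any coding gene. B930059L03Rik (chromosome 12, 110590512 to 110592700, plus strand) measured 10.6, 11.5 and 11.5 CPM in B220- and 28.9, 24.9 and 27.5 CPM in B220+ libraries. Within each group the libraries lay close together, and the groups were far apart. The log2 fold change was 1.28 (SE 0.11, 2.42-fold, adjusted p = 1.27e-05), and it was the only one of the 108 genes called in the test against a 1.5-fold change, which called 0.577% of all genes tested higher, 1.71% lower and 2.29% in either direction. The end of Ppp2r5c, a regulatory subunit of the phosphatase PP2A on the same strand, lies 7.45 kb away and had a log2 fold change of 0.21 (adjusted p = 0.0661, 0.0148 with the replicate block and 0.0348 with DESeq2).

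1810006J02Rik (chromosome 1, 98131456 to 98144655, plus strand) measured 17.2, 23.4 and 20.1 CPM in B220- and 34.9, 39.6 and 36.4 CPM in B220+ libraries. No B220- library came near the lowest B220+ library. It rose by 0.88 on the log2 scale (SE 0.11, 1.83-fold, adjusted p = 0.000305). Its nearest tested coding gene, Pam, which amidates peptides, lies 35.8 kb away and had a log2 fold change of 0.56 (adjusted p = 0.0621, and 0.0283 with the replicate block).

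Promoters of these genes are shown because they are the called lincRNAs with the smallest adjusted p in the higher direction and their starts differ in CpG content. The windows run from 250 bases before to 50 after the RefSeq start (GRCm38.p6), with CpG dinucleotides in capitals. For B930059L03Rik (chr12:110591124-110591423, plus strand, 23 CpG) the RefSeq start lies inside the deposited model, and for 1810006J02Rik (chr1:98131217-98131516, plus strand, 3 CpG) it lies near its 5′ end.
B930059L03Rik: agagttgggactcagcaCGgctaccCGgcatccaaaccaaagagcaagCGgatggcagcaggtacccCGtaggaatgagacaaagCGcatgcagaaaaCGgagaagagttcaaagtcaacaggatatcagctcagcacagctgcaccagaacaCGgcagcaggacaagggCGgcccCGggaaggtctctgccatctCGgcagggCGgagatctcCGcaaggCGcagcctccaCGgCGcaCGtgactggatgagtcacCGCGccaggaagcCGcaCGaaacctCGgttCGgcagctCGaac
1810006J02Rik: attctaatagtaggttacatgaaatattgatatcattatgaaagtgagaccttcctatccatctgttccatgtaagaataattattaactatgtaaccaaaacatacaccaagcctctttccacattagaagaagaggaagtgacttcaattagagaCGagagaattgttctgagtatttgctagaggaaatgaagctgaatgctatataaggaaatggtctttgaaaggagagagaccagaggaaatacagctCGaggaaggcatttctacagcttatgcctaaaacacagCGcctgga
Over the 51 of the 108 genes with a RefSeq promoter the median was 10 CpG, against 7 over all 27025 promoters. The ETS-type letters CCGGAAG, searched on both strands, were in 19.6% of the 51 and in 9.12% of all promoters, and the Sp1-type letters GGGCGG in 27.5% and 35.9%. The Runx-type letters TGTGGT were in 15.7% and 16.9%, the AP-1-type letters TGANTCA in 5.88% and 7.93%, and TATAAA in 11.8% and 14.2%. These shares describe letters in a window and were not tested.

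Gm19590 (chromosome 5, 75833035 to 75835645, minus strand) had the largest fold change and, of the called genes, the largest SE. It measured 1.56, 4.65 and 4.37 CPM in B220- and 11.7, 23.7 and 27.7 CPM in B220+ libraries. Replicate 1 was the lowest library of both groups, and the groups did not overlap. The log2 fold change was 2.62 (SE 0.53, 6.15-fold) with an adjusted p of 0.044. Its call was lost without B220- replicate 1 (adjusted p = 0.0692), 2 (0.0999) or 3 (0.12), without B220+ replicate 2 (0.122) or 3 (0.0937), without both libraries numbered 2 (0.238) and with no filter on low counts (0.103). With the replicate block it was 9.74e-10. The nearest tested coding gene is Kit, the stem cell factor receptor, 176 kb away. Kit measured 44.8, 97.0 and 80.7 CPM in B220- and 198, 297 and 312 CPM in B220+ libraries, with replicate 1 again lowest in each group. Its log2 fold change was 1.86 (adjusted p = 0.0543, 4.12e-07 with the replicate block, and called by DESeq2). Kit also marks mast cells, of whose other genes Mcpt1 fell by 3.58 (adjusted p = 0.0104, up to 0.0594 without B220+ replicate 1 or 2 and 0.0804 without both libraries numbered 2) and Cpa3 had a log2 fold change of -0.06 (adjusted p = 0.935). The list of mast cell and erythrocyte genes, most of it Kit, summed to 54.6 to 108 CPM in B220- and 204 to 322 CPM in B220+ libraries, and its part in the result was not tested.

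5031425F14Rik (chromosome 2, 166447451 to 166459232) lies 107 kb from Prex1, an exchange factor for Rac. It measured 3.45, 7.99 and 4.37 CPM in B220- and 13.2, 12.8 and 14.1 CPM in B220+ libraries. The B220+ libraries were close to each other and above all B220- libraries. It rose by 1.33 (SE 0.26, 2.51-fold, adjusted p = 0.0104), and without B220- replicate 3 the adjusted p was 0.0638. Prex1 had a log2 fold change of 0.20 (adjusted p = 0.0741, 0.022 with the replicate block and 0.0216 with DESeq2).

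Gm33699 and Gm39348 overlap on opposite strands of chromosome 9, so they are not independent of each other. Gm33699 measured 21.3, 31.9 and 23.1 CPM in B220- and 40.7, 39.8 and 37.8 CPM in B220+ libraries, without overlap. It rose by 0.63 (SE 0.13, adjusted p = 0.0112; 0.0662 without B220- replicate 3 and 0.0575 without B220+ replicate 2). Gm39348 had means of 5.16 ± 0.92 and 8.74 ± 1.3 CPM and rose by 0.76 (adjusted p = 0.0206). Its adjusted p was 0.0616 without B220- replicate 1, 0.0799 without B220+ replicate 1, 0.0731 without B220+ replicate 2 and 0.0745 without both libraries numbered 2. The nearest tested coding gene, Tle3, a transcriptional corepressor 313 kb from Gm33699, moved the other way (-0.26, adjusted p = 0.0289), a call kept in 1 of 6 fits with a library left out, the one without B220- replicate 2 (adjusted p up to 0.11 in the others), and lost without both libraries numbered 2 (0.0818).

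Gm36723, a model of 6803 exon bases 207 kb from Id2, an inhibitor of basic helix-loop-helix factors, measured 13.7, 13.1 and 11.3 CPM in B220- and 25.7, 18.4 and 15.7 CPM in B220+ libraries. It was highest in B220+ replicate 1, and rose by 0.63 (SE 0.17, adjusted p = 0.0333). Without B220- replicate 2 or 3 the adjusted p was 0.0687 or 0.142, without B220+ replicate 1 or 2 it was 0.101 or 0.0751, and without both libraries numbered 2 it was 0.121. Id2 had a log2 fold change of 0.10 (adjusted p = 0.483).

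At the CD8 locus on chromosome 6, Gm44175 measured 25.5, 28.6 and 22.6 CPM in B220- and 37.9, 44.2 and 29.4 CPM in B220+ libraries. The lowest B220+ library lay just above the highest B220- library. It rose by 0.55 (SE 0.15, 1.46-fold, adjusted p = 0.0402), a call lost without B220- replicate 1 (0.141) or 3 (0.154), B220+ replicate 1 (0.121) or 2 (0.139), and both libraries numbered 2 (0.0732). Gm44174, whose gene body it overlaps on the opposite strand without a shared exon base, had a log2 fold change of 0.27 (adjusted p = 0.167). Cd8a, the CD8 alpha chain, 12.6 kb away, had a log2 fold change of 0.36 (adjusted p = 0.00779; 0.0537 without B220- replicate 3). Cd8b1, the CD8 beta chain of the same locus, went the other way and fell by 3.16 (adjusted p = 0.00447); it lies outside the naming rule and was chosen after its values were seen.

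Several called genes overlap or adjoin a coding gene. Gm34086 overlaps Abcb9, a lysosomal peptide transporter, on the opposite strand of chromosome 5. It measured 10.5, 9.52 and 8.65 CPM in B220- and 17.1, 13.8 and 13.9 CPM in B220+ libraries and rose by 0.63 (adjusted p = 0.0113), while Abcb9 rose by 0.69 (adjusted p = 0.000216). Without B220- replicate 3 or B220+ replicate 1 the adjusted p of Gm34086 was 0.0555 or 0.0512. Gm10605 overlaps Tpbgl on the opposite strand of chromosome 7, and their fold changes were close: Gm10605 rose by 1.07 (adjusted p = 0.00882; 0.0594 without B220+ replicate 2) and Tpbgl by 1.02 (adjusted p = 0.0443). The call of Tpbgl was lost without B220- replicate 3 or any 1 of the B220+ libraries (adjusted p up to 0.139) and without both libraries numbered 2 (0.0558). Gm50431 overlaps the 3′ end of Nt5c2, a nucleotidase, on the opposite strand of chromosome 19. It rose by 0.78 (adjusted p = 0.0215), and the log2 fold change of Nt5c2 was 0.04 (adjusted p = 0.823). Its call was lost without B220- replicate 1 (0.0675), B220+ replicate 1 (0.075), 2 (0.0609) or 3 (0.0516) and without both libraries numbered 2 (0.0749). 5430416N02Rik, 4.61 kb from Sec31a, a coat protein of secretory vesicles, measured 68.1, 76.6 and 71.8 CPM in B220- and 86.7, 98.5 and 93.4 CPM in B220+ libraries. No library of one group reached the other. It rose by 0.37 (SE 0.08, 1.29-fold, adjusted p = 0.0074), and Gm27286, a short RNA model, overlaps it on the opposite strand with 14% of its counts.

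Of the 4 genes called lower, Gm5547 (chromosome 3, 105815540 to 105817357) fell most. It measured 26.3, 21.02 and 21.9 CPM in B220- and 14.8, 12.0 and 14.8 CPM in B220+ libraries. All B220+ libraries were below all B220- libraries, and it fell by 0.75 on the log2 scale (SE 0.13, 1.68-fold, adjusted p = 0.00216). Rap1a, a small GTPase 14.2 kb away, had a log2 fold change of -0.06. Gm47015 (chromosome 10, 79412962 to 79417905) measured 77.1, 60.6 and 74.8 CPM in B220- and 40.7, 49.0 and 51.1 CPM in B220+ libraries. Again the groups did not overlap, and it fell by 0.59 (SE 0.11, adjusted p = 0.00434).

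4930562F07Rik, on chromosome 1, measured 18.8, 15.4 and 15.1 CPM in B220- and 10.2, 11.3 and 10.04 CPM in B220+ libraries. It fell by 0.64 (SE 0.13, adjusted p = 0.00693). The gene 4930523C07Rik overlaps it on the opposite strand with 341.5% of its counts and fell by 0.49 (adjusted p = 0.00188). AI504432 lies 1.43 kb from Kcna3, the Kv1.3 potassium channel of T cells, and measured 133, 139 and 165 CPM in B220- and 103, 127 and 111 CPM in B220+ libraries. The highest B220+ library lay close to the lowest B220- library. It fell by 0.35 (adjusted p = 0.0375), with an adjusted p of 0.16 without B220- replicate 3, 0.132 without B220+ replicate 1, 0.141 without B220+ replicate 3 and 0.0521 without robust estimation. Kcna3 had a log2 fold change of -0.27 (adjusted p = 0.501).

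Among the 108 genes, no host of small RNAs was called by the group alone. Of 20 snoRNA host genes matched, 16 were tested. With the group alone edgeR and DESeq2 called none, and Snhg8, Snhg12, Snhg20 and Zfas1 had an unadjusted p under 0.05. With the replicate block edgeR called these 4 (Snhg8 -0.26, adjusted p = 0.0237; Zfas1 -0.29, adjusted p = 0.0147). Log2 fold changes were -0.07 for Snhg6, -0.21 for Snhg12, -0.12 for Snhg15, -0.06 for Epb41l4aos and 0.41 for Snhg20, the 5 of them among the 108 lincRNA genes. Snhg20 measured 14.9, 12.9 and 15.7 CPM in B220- and 22.1, 15.8 and 20.5 CPM in B220+ libraries, groups that just did not overlap. Its adjusted p was 0.0915, and it was called with the replicate block (0.0156), without B220+ replicate 2 (0.0338) and with no filter on low counts (0.0245). Snhg12 had an adjusted p of 0.178, and 0.0228 with the replicate block. The block also called Gm27194 (0.57, adjusted p = 0.0541 without and 0.018 with it), Gm19585 (0.23, 0.556 and 0.0375) and Gm28901 (-0.62, 0.11 and 0.033). Mir142hg measured 22.5, 20.6 and 26.8 CPM in B220- and 24.4, 23.2 and 33.7 CPM in B220+ libraries, overlapping groups with a log2 fold change of 0.22 (adjusted p = 0.467). Mir17hg had means of 9.65 ± 1.2 and 8.87 ± 3.6 CPM (-0.12, adjusted p = 0.857). Among 6 tested genes of the list of miRNA hosts edgeR and DESeq2 called none, and 0 had an unadjusted p under 0.05.

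Of lncRNAs known from immune cells, 8 of 12 matched genes were tested and Neat1 was the 1 called. AW112010 measured 680, 591 and 580 CPM in B220- and 674, 621 and 745 CPM in B220+ libraries, overlapping groups with a log2 fold change of 0.14 (adjusted p = 0.395). AU020206, the other abundant transcript, had means of 607 ± 96 and 684 ± 86 CPM (0.17, adjusted p = 0.497). Morrbid, known to restrain the adjacent gene for the death protein Bim (Bcl2l11) in short-lived myeloid cells, measured 9.16, 5.61 and 7.08 CPM in B220- and 6.19, 4.46 and 4.88 CPM in B220+ libraries. The groups overlapped, and its log2 fold change was -0.52 (adjusted p = 0.171). Bcl2l11, 15.8 kb away, measured 102, 140 and 116 CPM in B220- and 200, 207 and 196 CPM in B220+ libraries and rose by 0.75 (adjusted p = 0.000714).

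Neither Xist nor the other lincRNAs of the sex chromosomes were called. Ftx, next to Xist, had means of 16.9 ± 0.86 and 14.6 ± 2.5 CPM (-0.20, adjusted p = 0.462) and did not share the near absence of Xist in the libraries numbered 2, at 16.7 and 16.6 CPM. Gm47283, on the Y chromosome, measured 7.16, 9.18 and 7.61 CPM in B220- and 15.8, 28.8 and 6.51 CPM in B220+ libraries. Its B220+ libraries ranged from below to well above the B220- libraries, and the log2 fold change of 1.13 had an adjusted p of 0.37. All 11 genes of the X inactivation and sex-linked list were tested, as were 10 genes of Xist-binding and silencing proteins and 21 of nuclear RNA decay and nonsense-mediated decay. EdgeR and DESeq2 called none of them, and Smchd1 (-0.17 on the log2 scale) was the 1 gene with an unadjusted p under 0.05.

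The fold changes were set beside those of the nearest tested coding gene. Across the 108 genes Pearson's r was 0.40 and Spearman's rho 0.36. In the 36 models inside or overlapping a coding gene these were 0.59 and 0.56, in the 31 within 5 kb -0.09 and 0.16, and in the 41 farther away 0.37 and 0.27. These describe pairs of genes that share libraries and, for overlapping models, may share reads. Of the 18 called genes 7 had a called neighbour. With neighbours counted once per lincRNA gene, 22 of 108 were called, where 11.1% of all genes tested were called. Gm44175, Gm34086, Gm10605 and 4930562F07Rik moved the same way as their called neighbour, and Neat1, Gm33699 and Gm39348 moved the other way. Tle3 was counted for both Gm33699 and Gm39348. Calls were made in 4 of the 36 overlapping models (11.1%), 4 of the 31 nearby ones (12.9%) and 10 of the 41 farther ones (24.4%), against the same 11.1%. These shares and the correlations include Gm19590, 5031425F14Rik, Gm39348, Gm10605 and Gm50431, which reached the count threshold only through their higher group. A difference was built into the choice of those genes. The difference between these classes was not tested.

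Some coding genes with large differences had a neighbouring lincRNA that did not move with them. Neat1 rose beside Frmd8, a partner of iRhom proteins 4.22 kb away, which fell by 0.58 (adjusted p = 0.000412). Gm19585, not called by the group alone at 64.5 ± 8.2 and 76.0 ± 17 CPM, lies 153 kb from Satb1, a genome organiser of T cells, which fell by 1.09 (adjusted p = 0.000305). Gm47162, with a log2 fold change of 0.09 (adjusted p = 0.857), lies 46.3 kb from Tmem158, which rose by 1.95 (adjusted p = 0.000213).

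**Figure D5:**
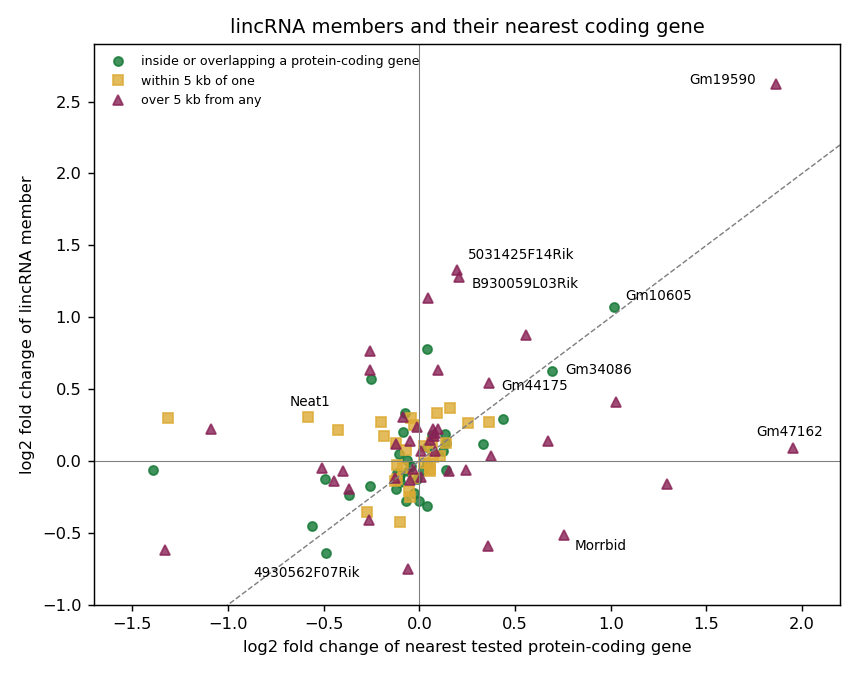
Log2 fold change of each of the 108 lincRNA genes against that of its nearest tested protein-coding gene, with the position class as the marker and the dashed line marking equal values. Gm10605 and Gm34086, which overlap their neighbours, lie on the line, Gm19590 lies at the upper right with Kit, and Neat1 and Morrbid lie off it.

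Markers of other cells in the sort were measured beside these results, and their part in them was not tested. Of 8 epithelial genes tested edgeR called none, with an unadjusted p under 0.05 for Epcam (1.08, called by DESeq2) and Muc2 (-1.32, log2), and the 9 listed summed to 307 to 372 CPM in B220- and 336 to 381 CPM in B220+ libraries. B cell genes summed to between 25 and 33.5 and to 31.7 to 35.1 CPM, nearly all from Cd79b, and of the 2 tested edgeR and DESeq2 called none, with 0 under an unadjusted p of 0.05. In the plasma cell list Sdc1 fell by 2.12 (adjusted p = 0.0203, and up to 0.127 without B220- replicate 3 or B220+ replicate 1 or 2), 1 of 3 tested, with sums of 132 to 238 and 138 to 174 CPM. Of macrophage and dendritic cell genes Lyz2 fell by 2.60 (adjusted p = 0.002), 1 of 6 tested, and 5 of the 6 had an unadjusted p under 0.05. The median log2 fold change of these 6 was 0.25. Itgax (0.63, adjusted p = 0.0554) was called by DESeq2 and with the replicate block, and Fcer1g (1.47, adjusted p = 0.108) by DESeq2. The sum was 408 to 545 CPM in B220- and 825 to 960 CPM in B220+ libraries, nearly all from Itgax and Fcer1g.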

How the data were processed

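Total RNA of 6 libraries of sorted mouse intraepithelial lymphocytes, 3 per group, was sequenced by the submitters with a directional kit, per the labels' protocols. The deposited values are raw read counts per gene, made by the authors with featureCounts 1.6.3 after HISAT2 2.1.0 alignment to mm10, with Trimmomatic 0.38, SAMtools 1.9 and FastQC 0.11.7 also named, per the submitters' processing notes. Options, strand setting and annotation were not given in the sources used here. GENCODE M21, which has the same coordinates for 98.73% of the deposited models, gave exon lengths and transcripts; promoters and miRNAs are from RefSeq.

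Differences were tested with edgeR 4.0.16 in R 4.3.3 over the whole table: trimmed-mean scaling (factors 0.99 to 1.01), filterByExpr (counts of at least 10, total of at least 15), robust quasi-likelihood dispersions, the group as the only term, and Benjamini-Hochberg adjustment over 14722 genes, called under 0.05. The fit was tested on simulated data. Fold changes are B220+ minus B220-, and CPM use scaled library sizes. Alternatives were DESeq2 1.42.0, other scaling, no filter, no robust estimation, a test against a 1.5-fold change, the replicate block, each library left out, and other membership thresholds; leaving out both libraries numbered 2, or the genes that reach the threshold through 1 group alone, was chosen after seeing the data.

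The genes and lists were chosen with earlier results of these data known. Named genes are those called, the 10 highest per kilobase, list members, those at the threshold and the nearest tested coding genes. Deviations from group means correlated at 0.295, 0.246 and 0.272 between libraries with the same replicate number and at -0.203 to -0.0675 between others. Only the replicate-block fit took same-numbered libraries as pairs, and the main fit did not. That pairing comes from the data, since the labels state none. Chi-square per degree of freedom between libraries within a group was 7.37 to 16.2, so none repeats another.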

Additional observations from a re-analysis of the deposited data

How the results depend on the processing

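Counts of called lincRNA genes moved little with scaling (14 higher and 4 lower), DESeq2 (14 and 4), no robust estimation (14 and 3) or no filter (15 and 5). Against a 1.5-fold change, edgeR called 1 higher and 0 lower, and all genes called fell to 337. Against no change DESeq2 called 4 lower. By edgeR's test against no change, 28 of the 108 and 3305 of all 14722 genes tested had an unadjusted p under 0.05. With the replicate block all genes called rose from 1639 to 2569, and lincRNA calls to 17 and 6; it ended no call of a lincRNA gene. Leaving out 1 library gave 6 to 13 higher, 3 to 4 lower and 970 to 1789 genes in all, with the lowest total without B220+ replicate 2, the deepest library, and 1029 without B220- replicate 3. Without both libraries numbered 2, 7 were called higher. Membership mattered as follows. A threshold of 1200 counts left 66 genes (10 higher, 4 lower) and one of 300 gave 156 (16 and 5). Without overlapped models 7 of 56 were called higher, without models within 5 kb of a coding gene 8 of 41 higher and 2 lower, and without those reaching the threshold through 1 group alone 9 of 98 higher; fewer genes are counted in each. Fold changes of uncalled genes changed sign in some fits: Gm10684 to 0.028 without both libraries numbered 2. With 1 library left out, the log2 fold changes ranged from -0.059 to 0.27 for Malat1, -0.074 to 0.0905 for Gm10684, -1.09 to 0.38 for Xist, -0.0056 to 0.22 for Gm28942, -0.30 to 0.23 for Gm28592, -0.24 to 0.046 for Snhg15, -0.26 to 0.015 for Lncpint, -0.14 to 0.067 for Snhg6, -0.23 to 0.0905 for Pvt1 and -0.43 to 0.10 for Mir17hg; the cause was not tested.

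Limits: with 3 libraries per group the median SE over the 108 genes was 0.15 on the log2 scale, and 12 of the 18 calls were lost in at least 1 fit that left out a library. B220+ replicate 2 holds more counts than any other library, so the summed threshold follows it more than the others. Models whose exons overlap on opposite strands cannot be separated in these counts.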

Other observations

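Below the threshold, 202 further lincRNA genes passed the filter on low counts, and edgeR's quasi-likelihood test called 6 of them (2.97%) higher and 10 (4.95%) lower in B220+ cells, where 5.58% and 5.56% of all genes tested were called. A630023P12Rik, on chromosome 5, had 222 counts in the B220- and 6 in the B220+ libraries, with 98, 60 and 64 against 1, 2 and 3 per library. It fell by 5.55 on the log2 scale (adjusted p = 1.3e-05) and kept its call with each library left out. Gm39323 (241 and 41 counts, fell by 3.09), Gm2682 (236 and 45 counts, fell by 2.79) and C030034L19Rik (126 and 33 counts, fell by 2.47) also kept their calls with each library left out. Of the 4 well-expressed lincRNAs called lower Gm5547 fell most, by 0.75, but the sizes of called changes are not comparable across the threshold. The median SE was 0.38 in the tested lincRNA genes below it and 0.15 in those above it. Low-count genes thus need a larger difference to be called. A gene much lower in 1 group also has fewer summed counts, so it is less likely to reach the threshold.

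Miat, a nuclear lncRNA that binds splicing factors, had 103 counts in B220- and 28 in B220+ libraries and fell by 2.38 (adjusted p = 0.00409). The gene body of Gm26953 overlaps that of Miat on the opposite strand, with 40 and 3 counts. Whether their exons share bases is not given here, so their reads may not be separable. In the higher direction, 3300005D01Rik had 5 counts in B220- and 63 in B220+ libraries (log2 fold change 3.18, adjusted p = 0.00652; 0.0594 without both libraries numbered 2). Mir181a-1hg, a host of miR-181, which tunes T cell receptor sensitivity, had 19 and 81 counts (1.79, adjusted p = 0.0406). Its call was lost without B220- replicate 1 or 3 and without B220+ replicate 1, 2 or 3 (adjusted p up to 0.156), and with DESeq2 (0.0557). Gm19705, with 555 counts in all just under the threshold, rose by 1.03 (adjusted p = 0.00699).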
